A study of Homo sapiens with 8 samples.

Results

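The axon guidance ligands and receptors are the secreted and membrane proteins by which growing axons and migrating neural crest cells read their surroundings. Their transcripts were followed in aggregates of IGR-N91, a human neuroblastoma (NB) cell line, exposed to media conditioned by embryonic ganglia. Members were the protein-coding genes of the count table whose symbol belongs to the semaphorins, plexins, neuropilins, ephrins, EPH receptors, slits, robos, netrins and netrin receptors, a rule that reads the name of a gene and no measured value. They numbered 70 of the 60676 Ensembl gene identifiers in the table and were described in 10 families.

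Each of 4 groups held 2 libraries. One group of aggregates was kept in control medium. The others received medium conditioned by sympathetic ganglia of chick embryos at embryonic day 8 (E8-cSGcm), by dorsal root ganglia of chick embryos at embryonic day 8 (E8-cDRGcm), or by sympathetic ganglia of mouse embryos at stage E15.5 (E15.5-mSGcm). All groups shared the same line, the hanging-drop culture and an exposure given as 20 h in the methods and as 24 h in the design text. The model was 1 cell line. Species and stage of the ganglia changed together between the chick and mouse sympathetic media and cannot be told apart. The methods state that measurements came from distinct samples and that each condition was sequenced in duplicate, without saying for these libraries whether the duplicates were separate cultures or days. The p-values measure the spread between these libraries, which may in part be technical.

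Semaphorins signal through plexins, and the secreted class 3 semaphorins mostly need a neuropilin as the binding subunit of the receptor. Ephrins and EPH receptors are both anchored in the membrane and signal at cell contacts, in either direction. Slits repel cells through robos, whereas netrins attract through DCC and repel through the UNC5 receptors. Neural crest cells use these systems to find the site of the sympathetic ganglia, which belong to the sympathoadrenal tissues in which NB arises.

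Library totals were 7930765 to 15060744 reads, and the 2 smallest, 7930765 and 8937397, were those of E15.5-mSGcm. A count of 3 reads, taken as the least a library can show, was worth 0.197 to 0.384 CPM, the read count scaled by library total and TMM factor, a floor that covers counting error only. The labelled cell type was checked on its markers. All 8 noradrenergic NB markers were detected, with a summed level of 1468 to 1483 CPM in control medium, 1172 to 1262 in E8-cSGcm, 1146 to 1158 in E8-cDRGcm and 1066 to 1099 in E15.5-mSGcm. HAND2 had the most reads of them, 9689 and 10809 in the controls. In E15.5-mSGcm, TH had 9 and 9 reads against 116 and 138 in the controls. DBH had 378 and 483 reads there against 495 and 565 in the controls. These came from totals of 7930765 and 8937397 against 12926136 and 15060744. Scaled to library total, DBH was thus higher in E15.5-mSGcm than in control medium, unlike TH. Of the other cell types, SOX10 and FABP7 of Schwann and satellite cells, CDH5 and TIE1 of endothelium and AIF1 of macrophages had no read in any library. Other markers had reads, among them ERBB3 of Schwann cells with 12 and 9 in control medium, 15 and 22 in E8-cSGcm, 26 and 43 in E8-cDRGcm and 16 and 25 in E15.5-mSGcm, VWF of endothelium with 2 to 11 in a library and CSF1R of macrophages with 0 to 6. The 6 fibroblast markers were all detected. Their sum was 157 to 174 CPM in control medium, 212 to 222 in E8-cSGcm, 193 to 200 in E8-cDRGcm and 161 to 174 in E15.5-mSGcm. Within this sum COL1A1 had 249 reads in each E15.5-mSGcm library against 1296 and 1716 in the controls. PDGFRA had 67 and 97 against 14 and 8, DCN 107 and 118 against 36 and 42, and LUM 839 and 805 against 654 and 828. Scaled to library total, COL1A1 was lower in E15.5-mSGcm than in control medium, and the other fibroblast markers were higher. Sensory neuron markers stood between 3.51 and 8.81 CPM in sum. The part of these markers in the results on guidance genes was not tested, and in bulk libraries fewer cells of a type and less RNA per cell cannot be told apart.

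IGR-N91 aggregates transcribed most of the guidance families. A total of 56 members had enough reads to be tested, and 39 of these were called in at least 1 conditioned medium. A call was an adjusted p under 0.05 with a fold change of at least 1.5 in either direction. The share of all genes called in at least 1 medium was not computed. Of the 14 that were not tested, 10 had at most 3 reads in each library and 5 had none in any library (SEMA6B, EPHA3, EPHB6, NTN4 and UNC5D), which allows up to the floor given above. The other 9 with at least 1 read were SEMA3G, SEMA5A, EPHA1, EPHB1, EFNA2, SLIT1, ROBO4, NTN1 and NTN5, and SEMA3G had the most, with 2 to 14 reads in a library.

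The number of members called differed between the media. In E8-cSGcm, 12 members rose and 0 fell, or 21.4% of those tested, where 8.59% of all 16680 genes tested were called in that comparison, 4.73% higher and 3.86% lower. These calls are those of edgeR, and DESeq2 called 9 higher and 0 lower. The count of 0 rests on the fold limit, since 15 members were lower at an unadjusted p under 0.05 and 11 of them at an adjusted p under 0.05. In E8-cDRGcm, 12 members rose and 13 fell, or 44.6%, beside 20.7% of all genes, 9.81% higher and 10.9% lower. In E15.5-mSGcm, 6 rose and 12 fell, or 32.1%, beside 13.9% of all genes, 6.65% higher and 7.27% lower. The median log2 fold change of the members was 0.15, 0.05 and -0.09 in the 3 media, beside 0.01, 0.01 and -0.02 for all genes. The tested members had a median level of 23.1 CPM against 17.4 CPM for all genes tested, and the part of this in the shares called was not tested.

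**Figure D1:**
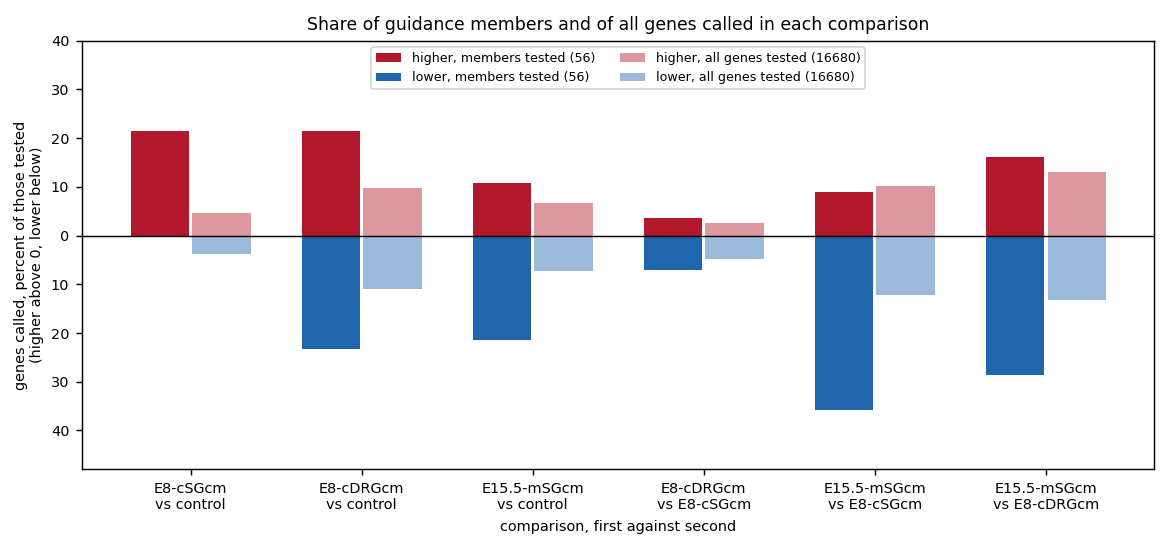
Percent of the 56 tested guidance members (dark bars) and of all 16680 genes tested (pale bars) that were called in each of 6 comparisons, with genes higher in the first-named medium above 0 and genes lower in it below 0. E8-cSGcm had 12 members higher and 0 lower than control, and E15.5-mSGcm had 20 lower than E8-cSGcm.

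Ligands and receptors were also counted apart. The semaphorins, ephrins, slits and netrins held 27 tested members, of which 8 rose and 0 fell in E8-cSGcm, 5 rose and 3 fell in E8-cDRGcm, and 2 rose and 5 fell in E15.5-mSGcm. The plexins, neuropilins, EPH receptors, robos and netrin receptors held 29, of which 4 rose and 0 fell, 7 rose and 10 fell, and 4 rose and 7 fell. The ligands called made up 29.6%, 29.6% and 25.9% of those tested in the 3 media and the receptors 13.8%, 58.6% and 37.9%, beside the shares of all genes given above. The difference between the 2 kinds was not tested. The 3 comparisons share the control libraries, so that a call in several of them is not an independent repeat. Of the 39 members called, 25 were called in 1 medium, 12 in 2 and 2 in all 3. The same counts over all genes were not computed, so these are not read as particular to the members.

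**Figure D2:**
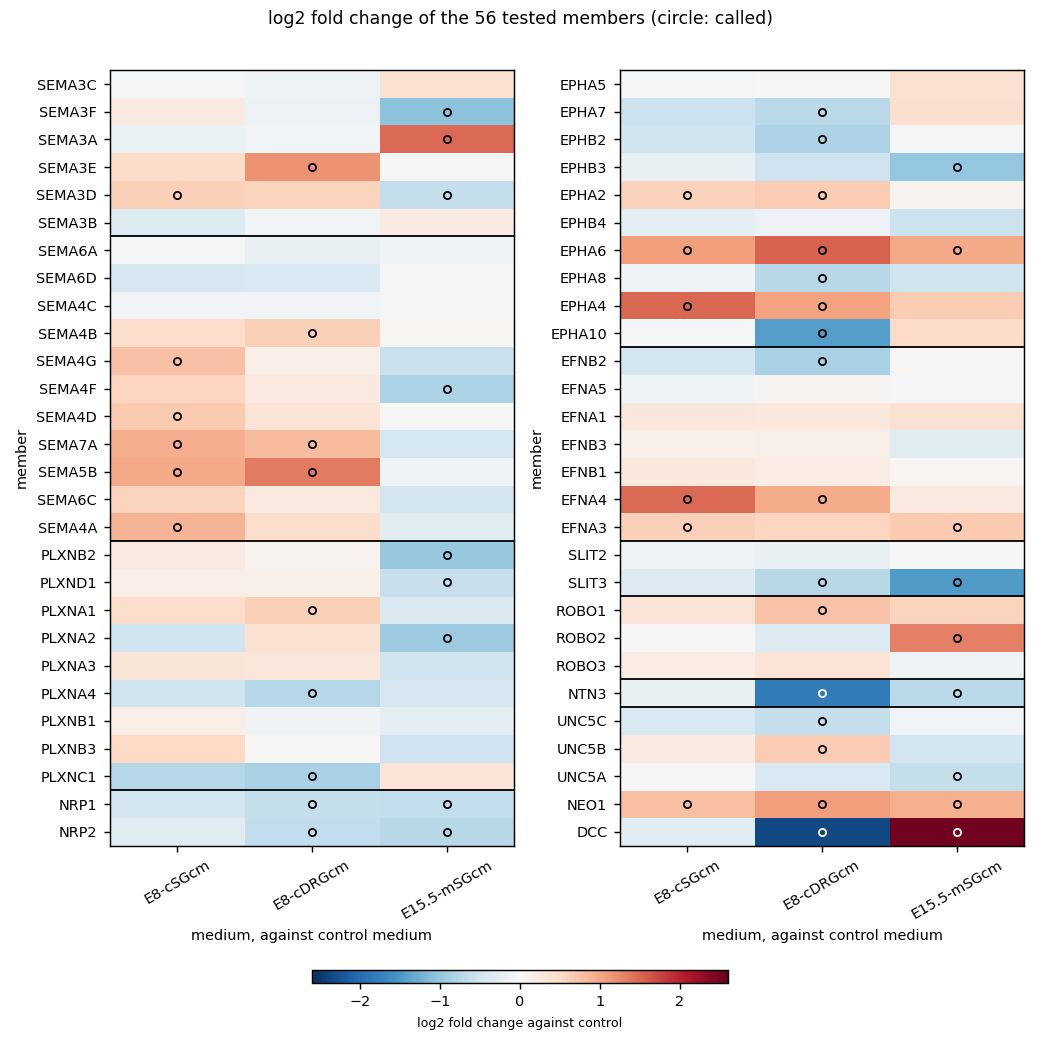
Log2 fold change of each of the 56 tested members in the 3 conditioned media against control medium (rows, families divided by black lines; red higher and blue lower than control), with a circle where the member was called. EPHA6 and NEO1 are circled in all 3 columns, and DCC holds both the lowest value, in E8-cDRGcm, and the highest, in E15.5-mSGcm.

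EPHA6 and NEO1, both receptors, were the members called in all 3 media, and both rose. EPHA6, a receptor tyrosine kinase for ephrin-A ligands, stood at 11.5 and 11.2 CPM in control medium, 23.6 and 24.8 in E8-cSGcm, 33.8 and 31.5 in E8-cDRGcm and 23.9 and 20.9 in E15.5-mSGcm. Both controls were thus below every exposed library. Its log2 fold change was 1.10 ± 0.11 (SE, as for all log2 values that follow) in E8-cSGcm with an adjusted p = 4.02e-10, 1.53 ± 0.10 (adjusted p = 4.69e-15) in E8-cDRGcm, and 0.98 ± 0.12 (adjusted p = 2.69e-08) in E15.5-mSGcm. NEO1, neogenin, which binds netrins and repulsive guidance molecules, stood at 4.66 and 3.81 CPM in control medium, 7.60 and 6.85 in E8-cSGcm, 9.56 and 8.26 in E8-cDRGcm and 7.03 and 8.89 in E15.5-mSGcm. Again the control libraries were the lowest of the 8. NEO1 changed by 0.78 ± 0.19 (adjusted p = 0.00152) in E8-cSGcm, by 1.08 ± 0.18 (adjusted p = 4.88e-06) in E8-cDRGcm, and by 0.93 ± 0.20 (adjusted p = 3.68e-04) in E15.5-mSGcm. When all libraries were thinned to the smallest total, the E8-cSGcm difference of NEO1 was 0.61 with an adjusted p = 0.0538.

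DCC, the attractive netrin receptor and a paralogue of NEO1, was the member with the widest range. It had 22 and 27 reads in control medium, 22 and 16 in E8-cSGcm, 4 and 5 in E8-cDRGcm and 70 and 94 in E15.5-mSGcm. The E8-cDRGcm libraries were thus the lowest and the E15.5-mSGcm libraries the highest, although these held the fewest reads in total. On the log2 scale DCC fell by 2.34 ± 0.46 in E8-cDRGcm with an adjusted p = 4.79e-05 and rose by 2.51 ± 0.25 (adjusted p = 1.86e-10) in E15.5-mSGcm, whereas the value in E8-cSGcm, 1.44 ± 0.454 CPM (SD, n = 2), overlapped that of control medium. DCC was also higher in E15.5-mSGcm than in E8-cSGcm, by 2.79 ± 0.26 (adjusted p = 2.38e-11). Its level stayed low throughout, at 0.750 ± 0.0953 CPM per kilobase of exons in E15.5-mSGcm, where it made up 0.763% of the summed level per kilobase of the netrin receptors.

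SEMA3D, a secreted class 3 semaphorin, was the other member called in opposite directions. It was at 16.3 and 18.5 CPM in control medium, 26.2 and 27.8 in E8-cSGcm, 25.4 and 26.8 in E8-cDRGcm and 12.9 and 10.03 in E15.5-mSGcm. Libraries of both chick media lay above the controls and those of the mouse medium below. The changes were 0.63 ± 0.10 (adjusted p = 9.16e-06) in E8-cSGcm and -0.62 ± 0.13 (adjusted p = 3.48e-04) in E15.5-mSGcm. Both sit close to the 1.5-fold limit, and each lost the call with some single libraries left out, the sizes being down to 0.55 without control replicate 1 and -0.44 without E15.5-mSGcm replicate 2. In E8-cDRGcm the difference was 0.58 ± 0.10 (adjusted p = 1.44e-05), under that limit.

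**Figure D3:**
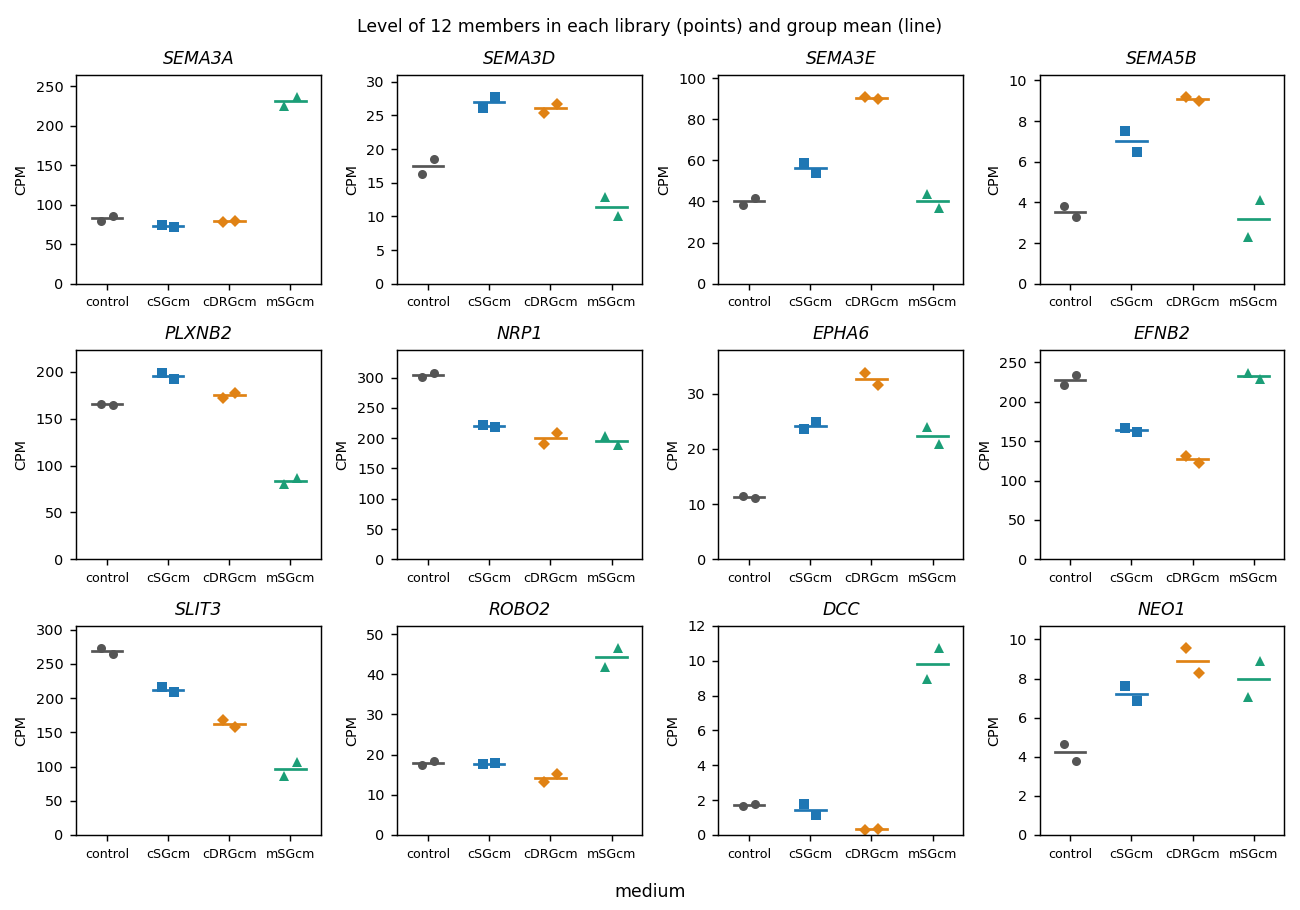
Level in CPM (linear axes from 0) of 12 members in each of the 8 libraries (points) with the mean of each group (horizontal line), for control medium, E8-cSGcm, E8-cDRGcm and E15.5-mSGcm from left to right. SEMA3A, ROBO2 and DCC are highest in both E15.5-mSGcm libraries, SEMA3E and SEMA5B in both E8-cDRGcm libraries, and the controls are lowest for EPHA6 and NEO1 and highest for NRP1 and SLIT3.

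The start regions of EPHA6 and DCC are shown because EPHA6 rose in every medium and DCC moved both ways. Each is the 300-base window of RefSeq, from 250 bases before to 50 bases after the listed start, on GRCh38.p14. EPHA6 lies on chromosome 3 from 96814594 to 97761532 and DCC on chromosome 18 from 52340197 to 53535899, both on the plus strand. Capitals mark matches to the GC box GGGCGG, searched on both strands, so that CCGCCC is a match on the minus strand.
EPHA6, chr3:96814344-96814643, plus strand: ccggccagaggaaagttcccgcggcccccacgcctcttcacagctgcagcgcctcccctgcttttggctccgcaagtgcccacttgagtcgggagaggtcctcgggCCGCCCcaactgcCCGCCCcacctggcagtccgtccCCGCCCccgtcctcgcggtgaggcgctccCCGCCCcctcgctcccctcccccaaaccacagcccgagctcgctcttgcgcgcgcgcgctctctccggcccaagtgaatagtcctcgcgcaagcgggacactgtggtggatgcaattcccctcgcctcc
DCC, chr18:52339947-52340246, plus strand: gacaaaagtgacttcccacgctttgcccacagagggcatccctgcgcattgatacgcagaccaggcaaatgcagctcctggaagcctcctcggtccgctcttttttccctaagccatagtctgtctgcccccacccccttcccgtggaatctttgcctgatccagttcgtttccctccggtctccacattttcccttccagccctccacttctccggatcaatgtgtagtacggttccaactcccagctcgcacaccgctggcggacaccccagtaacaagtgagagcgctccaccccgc
The EPHA6 window, 1 of 2 listed for this gene, was 71% G and C with 30 CG dinucleotides and held 4 GC boxes, at positions -144, -131, -108 and -79 from the start. The DCC window was 58% G and C with 15 CG dinucleotides and held no GC box. A GC box was present in 44.95% of 35116 promoter windows of all genes and in 67 of the 92 windows of the 60 members with an entry (72.8%). Of the other motifs searched, neither window held the TATA box TATAAA (11.5% of all windows and 3 of the 92), the E-box CACGTG (7.26% and 4), the AP-1 motif TGANTCA (7.71% and 1), the cAMP response element TGACGTCA (1.85% and 3) or the ATF4 motif TGATGNAA (3.62% and 2). These are matches of letters and not sites shown to be bound. The window of NEO1, which also rose in every medium, is not printed. It was 72.7% G and C and held 1 GC box, at position -131. A link between GC boxes and the changes was not tested.

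Levels of different genes were compared per kilobase of exons, as the mean over the 8 libraries. UNC5C, a repulsive netrin receptor, had the highest level of the 70 members, at 63.8 CPM per kilobase. EFNB2, a transmembrane ephrin, followed at 37.5, then SEMA3C at 29.2, SLIT2 at 25.8, UNC5B at 25.1 and ROBO1 at 24.9. UNC5C was the highest in every medium, but the order below it differed between media and is not read. In E8-cDRGcm, UNC5B at 35.7 and ROBO1 at 30.8 were above EFNB2 at 25.4. NTN3, the only netrin tested, was at 1.78 CPM per kilobase, below the UNC5 receptors tested and above NEO1 at 0.870 and DCC at 0.254, and NTN1, the best known of them, had 1 read in the 8 libraries.

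**Figure D4:**
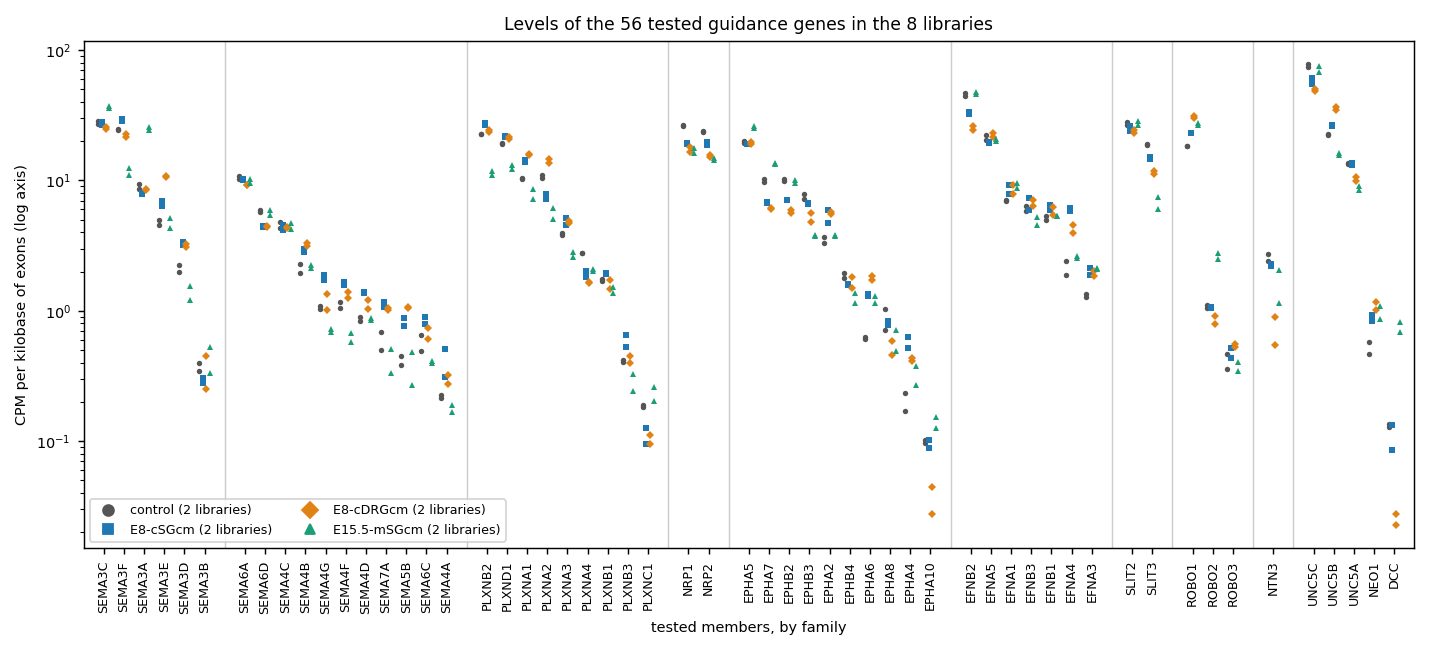
Level of each tested member in CPM per kilobase of exons (log axis) in each of the 8 libraries, with marker shape and colour for the medium and grey lines between the 10 families. UNC5C lies highest and DCC spans the widest range, from both E8-cDRGcm libraries at the low end of its points to both E15.5-mSGcm libraries at the high end.

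Among the secreted class 3 semaphorins, different members led in different media. Of 6 tested, 1 rose in E8-cSGcm, 1 rose in E8-cDRGcm, and 1 rose and 2 fell in E15.5-mSGcm. This was 16.7%, 16.7% and 50% of the family, beside 8.59%, 20.7% and 13.9% of all genes. SEMA3A, which collapses sensory and sympathetic growth cones through NRP1, stood at 79.9 and 86.4 CPM in control medium, 74.5 and 72.4 in E8-cSGcm, 78.8 and 79.9 in E8-cDRGcm and 226 and 236 in E15.5-mSGcm. In E8-cSGcm the difference from control was -0.18 ± 0.061 (adjusted p = 0.0204), under the fold limit. The mouse medium alone was called, with 1.47 ± 0.058 (adjusted p = 1.15e-21) against control, 1.65 ± 0.059 (adjusted p = 3.95e-23) against E8-cSGcm and 1.54 ± 0.058 (adjusted p = 8.05e-23) against E8-cDRGcm. SEMA3F, a ligand of NRP2, moved the other way in the same libraries, at 119 and 118 CPM in control medium, 138 and 143 in E8-cSGcm, 109.6 and 104 in E8-cDRGcm and 53.3 and 60.4 in E15.5-mSGcm. It fell by 1.06 ± 0.067 with an adjusted p = 1.09e-15, and its libraries in E15.5-mSGcm were below all others. The share of the summed class 3 level per kilobase held by SEMA3A was 13.1% in control medium and 31.3% in E15.5-mSGcm, while that of SEMA3F was 35.9% and 14.8%.

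SEMA3E, which binds PLXND1 without a neuropilin, was led by the dorsal root ganglion medium. It stood at 38.5 and 41.7 CPM in control medium, 58.7 and 53.7 in E8-cSGcm, 90.8 and 90.02 in E8-cDRGcm and 43.9 and 36.7 in E15.5-mSGcm. The groups did not overlap between E8-cDRGcm and any other medium, and SEMA3E rose by 1.17 ± 0.073 (adjusted p = 3.95e-16) against control and was higher than in E8-cSGcm by 0.69 ± 0.071 (adjusted p = 1.09e-09). SEMA3C had the highest level of the family as a mean over the 8 libraries, though not in E8-cSGcm, where SEMA3F was higher, and was called in no medium, at 27.7 ± 1.02 CPM per kilobase in control medium and 36.4 ± 0.783 in E15.5-mSGcm (SD, n = 2). The difference in that medium was 0.39 ± 0.054 (adjusted p = 2.08e-07). SEMA3B, with 17 to 35 reads in a library, was called nowhere.

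The membrane-bound semaphorins of classes 4 to 7 that were called in the chick media were higher there. Of 11 tested, 5 rose in E8-cSGcm and 3 in E8-cDRGcm with 0 lower in either, whereas in E15.5-mSGcm 0 rose and 1 fell. At an unadjusted p under 0.05, 1 was lower in E8-cSGcm, 2 in E8-cDRGcm and 0 higher in E15.5-mSGcm, and DESeq2 also gave 0 in these directions. The shares called were 45.5%, 27.3% and 9.09% in the 3 media, beside 8.59%, 20.7% and 13.9% of all genes. SEMA5B, which carries thrombospondin repeats, was at 3.82 and 3.28 CPM in control medium, 7.52 and 6.50 in E8-cSGcm, 9.18 and 8.99 in E8-cDRGcm and 2.30 and 4.10 in E15.5-mSGcm. Both chick media lay above control, by 0.98 ± 0.20 (adjusted p = 2.51e-04) in E8-cSGcm and 1.36 ± 0.19 (adjusted p = 2.67e-07) in E8-cDRGcm, and the E8-cSGcm difference was 0.53 with an adjusted p = 0.168 when libraries were thinned to the smallest total. SEMA7A, anchored by a lipid and a ligand of PLXNC1 and integrins, was at 2.596 and 1.90 CPM in control medium, 4.08 and 4.47 in E8-cSGcm, 3.88 and 4.02 in E8-cDRGcm and 1.28 and 1.94 in E15.5-mSGcm. All 4 chick medium libraries were above the other 4. SEMA7A changed by 0.94 ± 0.25 (adjusted p = 0.00341) in E8-cSGcm and by 0.82 ± 0.25 (adjusted p = 0.00655) in E8-cDRGcm. Both calls were lost without control replicate 2, where the sizes were 0.72 and 0.60. They were also lost with DESeq2 (adjusted p = 0.0832 and 0.108) and when thinned to the smallest total (adjusted p = 0.0871 and 0.0853). SEMA4B was at 15.9 and 13.7 CPM in control medium, 19.7 and 20.8 in E8-cSGcm, 23.1 and 22.2 in E8-cDRGcm and 15.6 and 14.8 in E15.5-mSGcm. It was called in E8-cDRGcm, at 0.62 ± 0.11 (adjusted p = 7.83e-06), just past the fold limit, and was at 0.46 ± 0.11 (adjusted p = 0.00119) in E8-cSGcm.

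A further 3 class 4 members were called in E8-cSGcm alone among the media. SEMA4D, the ligand of PLXNB1, was at 11.8 and 12.7 CPM in control medium, 19.5 and 19.8 in E8-cSGcm, 17 and 14.6 in E8-cDRGcm and 12.1 and 12.5 in E15.5-mSGcm. It rose by 0.68 ± 0.12 (adjusted p = 1.41e-05), and the step from E8-cSGcm to E8-cDRGcm, -0.31 ± 0.11 (adjusted p = 0.0289), did not reach the fold limit, so that the difference between the chick media was not called. Thinned to the smallest total, the change of SEMA4D was 0.49 with an adjusted p = 0.0123. SEMA4G was at 5.73 and 5.45 CPM in control medium, 9.93 and 9.09 in E8-cSGcm, 5.38 and 7.17 in E8-cDRGcm and 3.84 and 3.65 in E15.5-mSGcm. Both E8-cSGcm libraries were the highest of the 8. SEMA4G rose by 0.76 ± 0.17 (adjusted p = 5.97e-04), and E8-cDRGcm was lower than E8-cSGcm, with a difference of -0.60 ± 0.17 (adjusted p = 0.00629). That call was lost under 5 alternatives, among them DESeq2 (adjusted p = 0.109) and the fit without E8-cDRGcm replicate 1, which gave -0.40 (adjusted p = 0.159). Its exons overlap those of MRPL43 on the other strand, a gene with 3008 reads in the 8 libraries, and since the strand setting of the counting is not given in the sources used here the reads of both cannot be told apart. SEMA4A had 20 and 22 reads in control medium, 43 and 30 in E8-cSGcm, 25 and 30 in E8-cDRGcm and 10 and 10 in E15.5-mSGcm. The 2 E8-cSGcm libraries of SEMA4A differed widely, and its change of 0.88 ± 0.31 (adjusted p = 0.0287) was 0.50 with an adjusted p = 0.382 without E8-cSGcm replicate 1.

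SEMA4F was the class 4 member called lower in the mouse medium. It stood at 6.49 and 7.29 CPM in control medium, 10.4 and 9.86 in E8-cSGcm, 7.77 and 8.70 in E8-cDRGcm and 3.58 and 4.22 in E15.5-mSGcm. This was a change of -0.82 ± 0.21 (adjusted p = 0.00206) in E15.5-mSGcm, and the libraries of that medium lay below all others. SEMA4G was also lower than control there, by -0.58 ± 0.23 (adjusted p = 0.0441), just under the fold limit. SEMA6A and SEMA6D, transmembrane ligands of class A plexins, had the highest mean levels per kilobase over the 8 libraries among these semaphorins. Neither was called, SEMA6A being at 10.6 ± 0.389 CPM per kilobase in control medium and between 9.26 and 10.2 in group means of the 3 media. SEMA6D was at 5.86 ± 0.138 in control medium, 4.40 ± 0.0567 in E8-cSGcm, 4.45 ± 0.0777 in E8-cDRGcm and 5.71 ± 0.348 in E15.5-mSGcm, with -0.41 ± 0.076 (adjusted p = 4.53e-05) and -0.40 ± 0.075 (adjusted p = 3.22e-05) for the chick media. SEMA4C was level in all media, at 4.58 ± 0.345 CPM per kilobase in control medium and 4.45 ± 0.347 in E15.5-mSGcm.

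Plexins, the signalling receptors of semaphorins, fell or were not called in the mouse medium. All 9 were tested, of which 0 were called in E8-cSGcm (5 higher and 3 lower at an unadjusted p under 0.05, and 0 with DESeq2), 1 rose and 2 fell in E8-cDRGcm, and 3 fell in E15.5-mSGcm. Plexins were thus called at 0%, 33.3% and 33.3%, beside 8.59%, 20.7% and 13.9% of all genes. PLXNB2, the plexin with the highest mean level per kilobase over the 8 libraries, stood at 166 and 165 CPM in control medium, 199 and 192 in E8-cSGcm, 172 and 178 in E8-cDRGcm and 80.3 and 86.4 in E15.5-mSGcm. Both E15.5-mSGcm libraries lay far below the other 6, with -0.99 ± 0.059 (adjusted p = 2.35e-16). PLXND1, the receptor of SEMA3E, stood at 184 and 181 CPM in control medium, 208 and 204 in E8-cSGcm, 204 and 199.9 in E8-cDRGcm and 117 and 125 in E15.5-mSGcm. Its libraries of E15.5-mSGcm were again the lowest. Its change of -0.59 ± 0.055 (adjusted p = 3.58e-11) was at the fold limit, and under 7 of the alternative settings the adjusted p stayed under 0.05 with a size below 1.5-fold, down to -0.44 after correction for GC content and gene length. PLXNA2 was the plexin that set the chick media apart from each other, at 146 and 152 CPM in control medium, 109.7 and 99.3 in E8-cSGcm, 189 and 202 in E8-cDRGcm and 69.4 and 84.5 in E15.5-mSGcm. It fell by 0.95 ± 0.071 in E15.5-mSGcm with an adjusted p = 2.08e-12 and was higher in E8-cDRGcm than in E8-cSGcm by 0.91 ± 0.064 (adjusted p = 1.75e-12).

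PLXNA1, a partner of the neuropilins, rose in the dorsal root ganglion medium. It was at 116 and 114 CPM in control medium, 161 and 156 in E8-cSGcm, 179 and 177 in E8-cDRGcm and 80.4 and 96.7 in E15.5-mSGcm. The change was 0.62 ± 0.059 (adjusted p = 2.47e-11) in E8-cDRGcm. Under the fold limit were the differences of 0.46 ± 0.059 (adjusted p = 1.23e-07) in E8-cSGcm and -0.38 ± 0.065 (adjusted p = 1.47e-05) in E15.5-mSGcm. PLXNA4, the SEMA3A co-receptor of sympathetic neurons, was at 45.3 and 45.5 CPM in control medium, 33.3 and 29.9 in E8-cSGcm, 27.3 and 26.9 in E8-cDRGcm and 34 and 32.8 in E15.5-mSGcm. Control libraries were the highest of the 8, and the call was made in E8-cDRGcm, at -0.74 ± 0.083 (adjusted p = 1.28e-09). PLXNC1, the receptor of SEMA7A, had 25 and 28 reads in control medium, 12 and 18 in E8-cSGcm, 15 and 13 in E8-cDRGcm and 16 and 23 in E15.5-mSGcm. Scaled to depth, PLXNC1 was not lower in E15.5-mSGcm, with 2.05 and 2.62 CPM against 1.91 and 1.84 in control medium. Its change in E8-cDRGcm, -0.85 ± 0.36 (adjusted p = 0.0494), was lost with DESeq2 (adjusted p = 0.256) and with any library of the comparison left out, and its exons overlap those of CEP83 on the other strand, a gene with 2515 reads. PLXNA3 and PLXNB3 were called in no medium against control and PLXNB1 in no comparison.

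Both neuropilins fell in 2 media. NRP1, which binds SEMA3A and vascular endothelial growth factor, stood at 301 and 308 CPM in control medium, 221 and 219 in E8-cSGcm, 191 and 208 in E8-cDRGcm and 204 and 188 in E15.5-mSGcm. The controls were above all exposed libraries, and NRP1 changed by -0.61 ± 0.052 (adjusted p = 1.96e-12) in E8-cDRGcm and by -0.64 ± 0.054 (adjusted p = 3.35e-12) in E15.5-mSGcm. NRP2, which binds SEMA3F, stood at 334 and 329 CPM in control medium, 276 and 261 in E8-cSGcm, 218 and 210.1 in E8-cDRGcm and 206 and 198 in E15.5-mSGcm. It changed by -0.63 ± 0.049 (adjusted p = 1.86e-13) and by -0.72 ± 0.051 (adjusted p = 3.78e-14) in the same media. In E8-cSGcm both neuropilins were lower without reaching 1.5-fold, with -0.47 ± 0.052 (adjusted p = 4.09e-09) for NRP1 and -0.31 ± 0.049 (adjusted p = 5.37e-06) for NRP2. The balance between them varied little, NRP1 making up 52.5% of their summed level per kilobase in control medium and 49.7%, 52.9% and 54% in E8-cSGcm, E8-cDRGcm and E15.5-mSGcm. NRP1 in E8-cDRGcm was just under the fold limit without E8-cDRGcm replicate 1, at -0.55, and in E15.5-mSGcm without E15.5-mSGcm replicate 2, at -0.58.

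EPH receptors moved both ways. Of 10 tested, 3 rose and 0 fell in E8-cSGcm, 3 rose and 4 fell in E8-cDRGcm, and 1 rose and 1 fell in E15.5-mSGcm. That was 30%, 70% and 20% of the family, beside 8.59%, 20.7% and 13.9% of all genes. The receptors that rose, EPHA2, EPHA4 and EPHA6, had 4.55, 0.382 and 1.24 CPM per kilobase, whereas EPHA7 and EPHB2, which fell in E8-cDRGcm, had 9.07 and 8.17, and EPHA8 and EPHA10, which also fell there, 0.704 and 0.0928. EPHA2 was at 13.7 and 15.4 CPM in control medium, 19.6 and 24.5 in E8-cSGcm, 22.8 and 23.5 in E8-cDRGcm and 15.47 and 15.7 in E15.5-mSGcm. It changed by 0.60 ± 0.11 (adjusted p = 6.16e-05) in E8-cSGcm, which was under the fold limit without control replicate 1 (0.53) or E8-cSGcm replicate 2 (0.43), and by 0.67 ± 0.11 (adjusted p = 4.22e-06) in E8-cDRGcm. EPHA4, which binds both kinds of ephrin, was at 1.30 and 1.77 CPM in control medium, 3.92 and 4.75 in E8-cSGcm, 3.14 and 3.29 in E8-cDRGcm and 2.05 and 2.85 in E15.5-mSGcm. It rose by 1.48 ± 0.27 (adjusted p = 4.32e-05) in E8-cSGcm and by 1.05 ± 0.29 (adjusted p = 0.00241) in E8-cDRGcm, and all 4 chick medium libraries were above both controls.

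EPHA7, which shapes axon maps, fell in E8-cDRGcm. It was at 161 and 168 CPM in control medium, 113 and 111 in E8-cSGcm, 98.9 and 102 in E8-cDRGcm and 218 and 222 in E15.5-mSGcm. The chick media lay below the controls and the mouse medium above them, with -0.71 ± 0.054 (adjusted p = 9.09e-14) in E8-cDRGcm, -0.55 ± 0.053 (adjusted p = 2.17e-10) in E8-cSGcm and 0.43 ± 0.053 (adjusted p = 2.78e-08) in E15.5-mSGcm, of which only the first passed the fold limit. The mouse medium was called above both chick media, by 0.98 ± 0.054 (adjusted p = 1.57e-17) over E8-cSGcm and 1.13 ± 0.055 (adjusted p = 1.26e-19) over E8-cDRGcm. EPHB2 was at 124 and 128 CPM in control medium, 88.4 and 87.8 in E8-cSGcm, 71 and 74.1 in E8-cDRGcm and 119 and 126 in E15.5-mSGcm. EPHB2 changed by -0.79 ± 0.058 (adjusted p = 3.51e-14) in E8-cDRGcm, while E15.5-mSGcm overlapped control. EPHB3 fell in E15.5-mSGcm, by 1.01 ± 0.11 with an adjusted p = 1.15e-09, from values of 32.8 and 35.7 CPM in control medium, 30.5 and 29.7 in E8-cSGcm, 21.7 and 25.3 in E8-cDRGcm and 17.3 and 16.9 in E15.5-mSGcm. EPHA5, the receptor with the highest level of the family, was called nowhere, at 19.6 ± 0.608 CPM per kilobase in control medium and 25.7 ± 0.490 in E15.5-mSGcm, and its antisense gene EPHA5-AS1 held 1890 reads.

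The other EPH receptors called rested on few reads. EPHA8 was at 5.65 and 3.87 CPM in control medium, 4.56 and 4.26 in E8-cSGcm, 3.21 and 2.49 in E8-cDRGcm and 2.69 and 3.88 in E15.5-mSGcm, and E8-cDRGcm overlapped E15.5-mSGcm. Its change in E8-cDRGcm was -0.73 ± 0.24 (adjusted p = 0.011), and without control replicate 1 it was -0.44 with an adjusted p = 0.234. EPHA10, which lacks kinase activity, had 11 and 12 reads in control medium, 9 and 12 in E8-cSGcm, 3 and 5 in E8-cDRGcm and 8 and 11 in E15.5-mSGcm. Scaled to depth, EPHA10 was not lower in E15.5-mSGcm, with 1.02 and 1.25 CPM against 0.840 and 0.788 in control medium. A change of -1.43 ± 0.59 (adjusted p = 0.0417) in E8-cDRGcm was not called with DESeq2 (adjusted p = 0.203) or with any library of the comparison left out (adjusted p 0.077 to 0.221). EPHB4 was called in no comparison.

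Ephrins, the ligands of the EPH receptors, were called in both classes, EFNA3 and EFNA4 of the lipid-anchored A class and EFNB2 of the transmembrane B class. Of 7 tested, 2 rose in E8-cSGcm, 1 rose and 1 fell in E8-cDRGcm, and 1 rose in E15.5-mSGcm. The shares called were 28.6%, 28.6% and 14.3%, beside 8.59%, 20.7% and 13.9% of all genes. EFNA4 was at 2.37 and 3.02 CPM in control medium, 7.36 and 7.76 in E8-cSGcm, 4.93 and 5.70 in E8-cDRGcm and 3.32 and 3.19 in E15.5-mSGcm. In both chick media it was above every control and mouse medium library, by 1.48 ± 0.20 (adjusted p = 4.27e-07) in E8-cSGcm and 0.97 ± 0.22 (adjusted p = 3.06e-04) in E8-cDRGcm against control. EFNA3 had 34 and 38 reads in control medium, 52 and 52 in E8-cSGcm, 48 and 54 in E8-cDRGcm and 32 and 36 in E15.5-mSGcm. It changed by 0.61 ± 0.24 (adjusted p = 0.0465) in E8-cSGcm and 0.69 ± 0.26 (adjusted p = 0.0338) in E15.5-mSGcm, both lost with DESeq2 (adjusted p = 0.259 and 0.193) and with any library of the comparison left out. Both genes share exonic bases with the readthrough gene EFNA4-EFNA3, which had 0 reads in all libraries.

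EFNB2, the ephrin with the highest level per kilobase and a ligand of EPHB2 and EPHB4, fell in E8-cDRGcm. It stood at 222 and 234 CPM in control medium, 167 and 161 in E8-cSGcm, 131 and 123 in E8-cDRGcm and 237 and 228 in E15.5-mSGcm. The 3 levels did not overlap, with E8-cDRGcm lowest, E8-cSGcm between, and control and E15.5-mSGcm together at the top. Against control the difference was -0.84 ± 0.053 (adjusted p = 5.67e-16) in E8-cDRGcm and -0.47 ± 0.052 (adjusted p = 3.84e-09) in E8-cSGcm, the latter under the fold limit. Of the summed ephrin level per kilobase EFNB2 made up 51.4% in control medium, 40.1% in E8-cSGcm, 33.9% in E8-cDRGcm and 51.1% in E15.5-mSGcm. EFNA5, next in level, was not called, with 21.3 ± 1.25 CPM per kilobase in control medium and group means of 19.6 to 22.2 in the conditioned media. EFNA1, EFNB1 and EFNB3 were called in no comparison either.

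Of the 2 slits tested, SLIT3 fell in 2 media and SLIT2 was called in none. SLIT3, a secreted repellent, stood at 273 and 265 CPM in control medium, 216 and 209 in E8-cSGcm, 167 and 158 in E8-cDRGcm and 86.6 and 106 in E15.5-mSGcm. The 4 groups did not overlap and followed each other downwards from control over E8-cSGcm and E8-cDRGcm to E15.5-mSGcm. SLIT3 changed by -0.72 ± 0.059 (adjusted p = 2.67e-12) in E8-cDRGcm and by -1.47 ± 0.065 (adjusted p = 6.16e-19) in E15.5-mSGcm, with -0.34 ± 0.058 (adjusted p = 2.00e-05) in E8-cSGcm, under the fold limit. SLIT2, the slit with the highest level, was not called, at 27.3 ± 1.21 CPM per kilobase in control medium, 25 ± 1.47 in E8-cSGcm, 23.7 ± 0.854 in E8-cDRGcm and 27.4 ± 1.28 in E15.5-mSGcm. Its share of the summed slit level per kilobase was 59.1% in control medium and 80.2% in E15.5-mSGcm.

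Of 3 robos tested, 1 rose in E8-cDRGcm and another in E15.5-mSGcm. Robos were thus called at 33.3% in each of these media, beside 20.7% and 13.9% of all genes. ROBO1, a slit receptor and the robo with the highest level, stood at 202 and 204 CPM in control medium, 257 and 254 in E8-cSGcm, 347 and 333 in E8-cDRGcm and 296 and 307 in E15.5-mSGcm. Every exposed library was above both controls, and the call was made in E8-cDRGcm, at 0.74 ± 0.049 (adjusted p = 1.73e-15). In E15.5-mSGcm the difference of ROBO1 was 0.57 ± 0.050 (adjusted p = 9.28e-12), just under the fold limit. ROBO2 stood at 17.4 and 18.4 CPM in control medium, 17.6 and 17.9 in E8-cSGcm, 13.2 and 15.3 in E8-cDRGcm and 41.9 and 46.5 in E15.5-mSGcm. The mouse medium was set apart from the other 3 groups, by 1.30 ± 0.10 (adjusted p = 2.57e-13) against control, 1.32 ± 0.10 (adjusted p = 1.29e-13) against E8-cSGcm and 1.64 ± 0.10 (adjusted p = 4.37e-16) against E8-cDRGcm. ROBO3, with 19 to 52 reads in a library, was called nowhere.

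NTN3, the only netrin that was tested, fell in 2 media. It had 78 and 81 reads in control medium, 62 and 69 in E8-cSGcm, 16 and 27 in E8-cDRGcm and 35 and 22 in E15.5-mSGcm. Scaled to depth, E8-cDRGcm was below the other groups. There NTN3 fell by 1.82 ± 0.26 with an adjusted p = 3.38e-07 against control. In E15.5-mSGcm the change was -0.70 ± 0.25 (adjusted p = 0.0254), and it was -0.34 without E15.5-mSGcm replicate 2. That call was also lost with DESeq2 (adjusted p = 0.185). After correction for GC content and gene length the change was -0.26 (adjusted p = 0.452). NTN5, the next netrin in level, had 0 to 2 reads in a library.

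Among the netrin receptors the UNC5 genes, which mediate repulsion and can trigger cell death when netrin is missing, changed in different media. UNC5C stood at 788 and 837 CPM in control medium, 653 and 585 in E8-cSGcm, 519 and 536 in E8-cDRGcm and 729 and 807 in E15.5-mSGcm. It fell by 0.62 ± 0.054 in E8-cDRGcm with an adjusted p = 8.81e-12, while E15.5-mSGcm overlapped control. Without control replicate 2 the size was -0.58, just under the fold limit. Its antisense gene UNC5C-AS1 held 1085 reads beside 66656 of UNC5C itself. UNC5B stood at 156 and 152 CPM in control medium, 182 and 178 in E8-cSGcm, 250.1 and 238 in E8-cDRGcm and 107 and 112 in E15.5-mSGcm. UNC5B was highest in E8-cDRGcm, with 0.66 ± 0.051 (adjusted p = 1.37e-13) against control, and lowest in E15.5-mSGcm, with -0.50 ± 0.057 (adjusted p = 4.44e-09), under the fold limit. UNC5A stood at 58.6 and 57.2 CPM in control medium, 59.2 and 56.8 in E8-cSGcm, 45.5 and 42.8 in E8-cDRGcm and 36.3 and 38.9 in E15.5-mSGcm. Its change in E15.5-mSGcm was -0.62 ± 0.080 (adjusted p = 6.95e-08), and it was -0.33 after correction for GC content and gene length, with an adjusted p = 0.00121. The share of UNC5B in the summed receptor level per kilobase was 20.0% in control medium, 37% in E8-cDRGcm and 16.2% in E15.5-mSGcm.

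Differences between the conditioned media themselves were tested directly. Between the chick media, 2 members were higher and 4 lower in E8-cDRGcm than in E8-cSGcm, or 10.7% of those tested, beside 7.49% of all genes, 2.62% higher and 4.87% lower. The higher ones were SEMA3E and PLXNA2, given above, and the lower ones SEMA4G, EPHA8, NTN3 and DCC. The difference was -1.62 ± 0.27 for NTN3 (adjusted p = 1.44e-05) and, for DCC, -2.06 ± 0.48 (adjusted p = 0.00104). EPHA8 was called at -0.63 ± 0.24 (adjusted p = 0.0475), which was lost under 10 alternatives. The difference of DCC was -1.28 (adjusted p = 0.151) when libraries were thinned to the smallest total.

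The mouse medium differed from E8-cSGcm in 25 members, 5 higher and 20 lower, or 44.6%, beside 22.3% of all genes, 10.2% higher and 12.1% lower. The higher members were SEMA3A, ROBO2, EPHA7, DCC and PLXNC1, the last called on few reads and not with DESeq2 (adjusted p = 0.141). Among the 20 that were lower, 7 were membrane-bound semaphorins and 5 were plexins. SEMA7A differed by -1.39 ± 0.31 (adjusted p = 2.28e-04) and SEMA4F by -1.37 ± 0.20 (adjusted p = 3.73e-07). SEMA6C, which was called in no medium against control, had 49 and 43 reads in control medium, 57 and 74 in E8-cSGcm, 47 and 58 in E8-cDRGcm and 18 and 21 in E15.5-mSGcm. Its difference from E8-cSGcm was -1.05 ± 0.27 (adjusted p = 0.00131). PLXNA3 was at 46.5 and 44.9 CPM in control medium, 60.4 and 53.4 in E8-cSGcm, 55 and 57.4 in E8-cDRGcm and 30.3 and 32.9 in E15.5-mSGcm. PLXNA3 was lower in E15.5-mSGcm, with a difference of -0.84 ± 0.086 (adjusted p = 2.25e-10) from E8-cSGcm and of -0.83 ± 0.086 (adjusted p = 2.23e-10) from E8-cDRGcm. PLXNB3, with 37 and 45 reads in control medium, 46 and 65 in E8-cSGcm, 42 and 38 in E8-cDRGcm and 18 and 15 in E15.5-mSGcm, differed from E8-cSGcm by -1.05 ± 0.29 (adjusted p = 0.00279), a call lost with DESeq2 (adjusted p = 0.0522), with GC and length correction and the replicate block (0.0527), and without E15.5-mSGcm replicate 2 (0.0653).

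Against E8-cDRGcm, 25 members differed in the mouse medium, 9 higher and 16 lower, again 44.6%, beside 26.2% of all genes, 13.1% higher and 13.1% lower. DCC had the widest gap, at 4.85 ± 0.34 (adjusted p = 8.10e-15), with 4 and 5 reads in E8-cDRGcm against 70 and 94. EFNB2 was higher in the mouse medium by 0.87 ± 0.055 (adjusted p = 2.77e-16) and EPHB2 by 0.76 ± 0.061 (adjusted p = 2.72e-13). Of the lower members, PLXNA2 differed by -1.34 ± 0.070 (adjusted p = 8.56e-17), UNC5B by -1.16 ± 0.055 (adjusted p = 8.96e-20) and PLXNA1 by -1.0003 ± 0.064 (adjusted p = 4.08e-16). In all 3 comparisons between media, and in the 3 against control, no called member had overlapping libraries between the 2 groups compared. The share of all genes without overlap was not computed. Members that were not called could also lack overlap, such as SEMA6A in E8-cSGcm against control, so that this adds nothing to the calls. The comparisons of the mouse medium share its 2 libraries, which had the lowest totals.

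Genes that act with these ligands and receptors were counted in the same way from a pair of lists. Of 36 tested signal mediators, which link guidance receptors to the cytoskeleton, 1 rose in E8-cSGcm, 5 rose and 1 fell in E8-cDRGcm, and 1 rose and 4 fell in E15.5-mSGcm, with median log2 fold changes of 0.02, 0.08 and -0.08. The shares called were 2.78%, 16.7% and 13.9%, beside 8.59%, 20.7% and 13.9% of all genes, so that this list was not called more often than genes at large. NGEF, an exchange factor that acts downstream of EPHA4, rose in E8-cDRGcm, with 2.85 ± 0.57 (adjusted p = 6.57e-05), from a mean of 0.251 to 1.85 CPM. NCK1, an adaptor of several guidance receptors, rose in the same medium, with 0.89 ± 0.073 (adjusted p = 6.96e-13), and the GTPase gene RHOA did so by 0.64 ± 0.048 (adjusted p = 4.46e-14). In E15.5-mSGcm, DPYSL4, a collapsin response mediator, fell by 1.14 ± 0.11 with an adjusted p = 6.40e-11. SRGAP3, a GTPase activator that binds ROBO1, fell in E8-cDRGcm, with -0.90 ± 0.088 (adjusted p = 1.50e-10), and in E15.5-mSGcm, with -0.62 ± 0.093 (adjusted p = 2.07e-06).

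Of 17 tested co-receptors and other cues, 1 rose and 2 fell in E8-cSGcm, 1 rose and 7 fell in E8-cDRGcm, and 1 rose and 5 fell in E15.5-mSGcm, with medians of -0.06, 0.01 and -0.30. The shares called were 17.6%, 47.1% and 35.3%, beside 8.59%, 20.7% and 13.9% of all genes. NTNG1, a lipid-anchored netrin relative that does not bind DCC, rose in all 3 media, by 0.89 ± 0.20 (adjusted p = 4.99e-04) in E8-cSGcm, 1.03 ± 0.19 (adjusted p = 2.56e-05) in E8-cDRGcm and 0.94 ± 0.21 (adjusted p = 5.55e-04) in E15.5-mSGcm. CNTN2, an adhesion molecule of axons, fell in all 3, with -0.91 ± 0.21 (adjusted p = 9.43e-04), then -1.22 ± 0.22 (adjusted p = 1.44e-05) and -2.03 ± 0.28 (adjusted p = 3.19e-07). MET, the hepatocyte growth factor receptor, likewise fell in each, with -0.72 ± 0.13 (adjusted p = 2.98e-05), then -1.70 ± 0.14 (adjusted p = 1.98e-12) and -0.76 ± 0.14 (adjusted p = 4.76e-05). FLRT3, a binding partner of UNC5 and robo receptors, fell in E8-cDRGcm, with -1.28 ± 0.10 (adjusted p = 4.16e-13).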

How the data were processed

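Stranded total RNA libraries were made from 50 ng of RNA and sequenced as 75 bp single reads. The deposited values are raw read counts per Ensembl gene, which the authors obtained with bcl2fastq 2.17.1.14, cutadapt 1.9.1, TopHat 2.1.0 and HTSeq 0.11.3. Their methods name genome build hg19 and the submitters' processing notes hg38, and the strand setting of the counting is not given in the sources used here. Symbols and exon lengths came from GENCODE 44 on GRCh37 (58611 of 60676 identifiers matched), positions and promoters from RefSeq GRCh38.p14.

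Genes passing filterByExpr were fitted with all 8 libraries in 1 model of 4 groups (edgeR 4.0.16 in R 4.3.3, TMM, robust quasi-likelihood, Benjamini-Hochberg adjustment over 16680 genes), and adjusted p-values are from this fit unless DESeq2 1.42.0 is named. Members and lists were chosen with earlier results of these data known. Named with values are members called against control, the 2 with the highest level per kilobase in each family, and members called between media. Alternatives changed normalization, count filter, GC and length correction, depth, the libraries fitted and the replicate block. Samples with the same replicate number did not deviate together (r from -0.0437 to 0.0420).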

Additional observations from a re-analysis of the deposited data

Results flagged for a closer look

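DCC and SEMA3D were the members called against control in both directions, once in a chick medium and once in E15.5-mSGcm, and the difference between those media was itself tested. Others, such as EPHA7 and UNC5B, lay on both sides of control with a call in 1 medium only. For DCC, which fell in E8-cDRGcm and rose in E15.5-mSGcm, the difference E15.5-mSGcm minus E8-cDRGcm was 4.85 on the log2 scale, with 4 and 5 reads against 70 and 94. For SEMA3D, which rose in E8-cSGcm and fell in E15.5-mSGcm, the difference E15.5-mSGcm minus E8-cSGcm was -1.24, and the libraries of both media did not overlap.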

How the results depend on the processing

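With the adjusted p alone and no fold limit, the members called numbered 36, 40 and 29 for E8-cSGcm, E8-cDRGcm and E15.5-mSGcm against control, 25 for E8-cDRGcm against E8-cSGcm, and 41 and 40 for E15.5-mSGcm against E8-cSGcm and E8-cDRGcm. Of all 16680 genes, 5213, 8261, 6305, 5037, 8304 and 8767 were called in that order. Thinned to the smallest library, 7 members instead of 12 were called in E8-cSGcm, beside 1206 instead of 1433 of all genes. Leaving out 1 library gave 9 to 11, 21 to 23, 15 to 17, 4 to 5, 23 to 25 and 22 to 26 in the same order. DESeq2 gave 9, 21, 16, 4, 21 and 20, and in the 3 comparisons against control it called 855, 2597 and 1585 of all genes. The replicate block, for numbers that do not pair the samples, gave 11, 24, 18, 6, 25 and 25. Against control it called 1414, 3444 and 2288 of all genes. The difference of UNC5A between E15.5-mSGcm and E8-cDRGcm, not called at -0.23, was 0.027 after correction for GC content and length and 0.028 with the block added. Of 111 calls of a member in a comparison, 39 were lost under at least 1 alternative, 15 of them by the fold limit alone. The causes were not tested. EFNA3, PLXNC1 and EPHA10, with at most 54 reads in a library, lost their calls against control with any library of the comparison left out, and 14 members were too shallow to test.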
